A study of Mus musculus with 12 samples.

Results

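The genes described here encode the megalin-cubilin endocytic receptor complex and its closest partners: *Lrp2*, *Cubn*, *Amn*, *Dab2*, *Lrpap1*, *Clcn5* and *Folr1*. They were chosen by name, 7 genes of the 17305 named on the array, and all their probes were taken, 13 of 41174. Earlier results of these data were known when these genes and the gene lists below were chosen. Of these, 11 probes of 6 genes were tested, against 22979 probes of 12647 genes in the whole series, because testing required a signal well above background on at least 6 of 12 arrays in either the null or the wild-type (WT) channel. The only *Cubn* probe and 1 of the 4 *Lrp2* probes did not reach that level.

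Kidneys of embryos lacking *Bdkrb2*, the gene of the bradykinin B2 receptor, were set against kidneys of their WT counterparts. Both genotypes were on a C57BL/6 background, were taken at embryonic day 14.5, and had *Bdkrb2* heterozygous parents. The mothers ate food with 5% sodium, so null and WT embryos shared the salt load. Each of the 12 two-colour Agilent arrays carried RNA of both genotypes: on null/WT arrays the null RNA carried the red dye Cy5, and on WT/null arrays it carried the green dye Cy3. Each orientation had 3 replicates on 2 arrays each, the orientations of a replicate number shared a slide, and the labels do not say whether a sample held 1 embryo or several, or whether the orientations used separate extracts.

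Megalin (*Lrp2*) and cubilin (*Cubn*) are very large receptors in the brush border of the proximal tubule, where they take filtered proteins, vitamin carriers and hormones back from the tubular fluid. Cubilin has no membrane span of its own and reaches the surface bound to amnionless (*Amn*). Cargo is pulled in through clathrin-coated pits with the help of the adaptor Dab2 and is released in endosomes whose acidification depends in part on the chloride-proton exchanger ClC-5 (*Clcn5*). The chaperone RAP (*Lrpap1*) escorts megalin through the endoplasmic reticulum, and the folate receptor Folr1 shares the apical surface and the uptake of folate. In the embryonic kidney megalin, cubilin and amnionless come on as the first nephrons mature. In whole kidneys, fewer cells of a type and less RNA per cell cannot be told apart.

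The sequences around the start of *Lrp2* and *Amn* are shown because the results below turn on these genes. RefSeq promoter sequences of build GRCm38.p6 were found for 6 of the 7 genes. The *Lrp2* window lies at chr2:69585980-69586279 on the minus strand and the *Amn* window at chr12:111270846-111271145 on the plus strand, and both are written 5′ to 3′ along the gene, with matches to any of 5 short motifs in capitals.
Lrp2: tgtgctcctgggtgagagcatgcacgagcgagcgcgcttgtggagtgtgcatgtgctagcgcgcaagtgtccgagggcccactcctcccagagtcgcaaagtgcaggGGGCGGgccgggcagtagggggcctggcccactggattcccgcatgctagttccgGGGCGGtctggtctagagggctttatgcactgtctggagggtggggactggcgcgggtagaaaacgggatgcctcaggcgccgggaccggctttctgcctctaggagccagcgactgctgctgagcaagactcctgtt
Amn: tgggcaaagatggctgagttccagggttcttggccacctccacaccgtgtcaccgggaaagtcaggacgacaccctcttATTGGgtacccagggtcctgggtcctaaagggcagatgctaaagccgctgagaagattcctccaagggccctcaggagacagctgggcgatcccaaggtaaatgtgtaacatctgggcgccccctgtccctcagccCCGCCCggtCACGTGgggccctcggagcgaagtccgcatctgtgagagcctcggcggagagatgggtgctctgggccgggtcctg
The capitals in *Lrp2* are 2 copies of the GC box GGGCGG. In *Amn* they are, in order, a CCAAT box read on the other strand, a GC box read on the other strand and the E-box CACGTG, with no overlap between them. Both strands were searched. Among 32851 promoter windows of 300 bases, 35.7% held GGGCGG, 37.4% held CCAAT and 7.15% held CACGTG. The letters CAAAGTCC, a half-site of the tubule factor HNF4 (in 1.42% of windows), matched neither window. TATAAA, the TATA box (in 13.6%), also matched neither. These matches describe letters only.

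The share of spots well above background was 41.2% to 59.0% in the Cy3 channel and 51.1% to 60.0% in the Cy5 channel. In Cy3 the share was 41.2% to 52.9% on slide 3 and 52.0% to 59.0% on slides 1 and 2. The first array of WT/null replicate 3 spread most, with a standard deviation of its log2 ratios of 0.381. The other arrays of slide 3 had 0.255 to 0.256, against 0.164 to 0.201 on slides 1 and 2, so slide 3 as a whole spread more. All 10 nephron progenitor markers, among them *Six2* and *Cited1*, were well above background in all 12 null and all 12 WT channels, as the kidney label requires. For *Bdkrb2* itself, 0 of 12 null channels and 1 of 12 WT channels gave a signal well above background, so its probe hardly checks the genotype. *Xist*, made from an inactive X chromosome, was well above background in all null channels but in WT on slide 1 alone, and the Y-linked *Ddx3y*, *Kdm5d* and *Eif2s3y* in 0 of 12 null and in 8 of 12 WT channels, those of slides 2 and 3. The make-up by sex therefore differed between null and WT on slides 2 and 3, alike on both. Its part in the results below was not tested.

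Null over WT was estimated for each probe with limma and a dye term, and p-values were adjusted by Benjamini and Hochberg over the 22979 tested probes. This fit took the 6 replicates as independent, although both orientations of a number shared a slide, so its p-values may be too small. None of the 6 tested genes passed the adjusted threshold of 0.05 by its brightest probe, and neither did any of the 11 probes, against a background of 0.0392% of probes called. At an unadjusted p under 0.05, 1610 probes passed in all, and 3 of the 11 did, both bright *Lrp2* probes and the brighter one of *Dab2*. The estimates lay above 0 for 5 of the 6 genes, with a median of 0.14 on the log2 scale. Over all named genes 48.1% lay above 0, with a median of -0.0031. By replicate number the median of the 6 genes was -0.0016, 0.05 and 0.42 at numbers 1, 2 and 3. Without slide 3 the estimates of *Amn* and *Folr1* were -0.12 and -0.080. With all 6 replicates only *Clcn5* lay below 0. The sign of *Clcn5* turned when arrays were median-centred, which moved the median of all tested probes to 0.14.

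**Figure D1:**
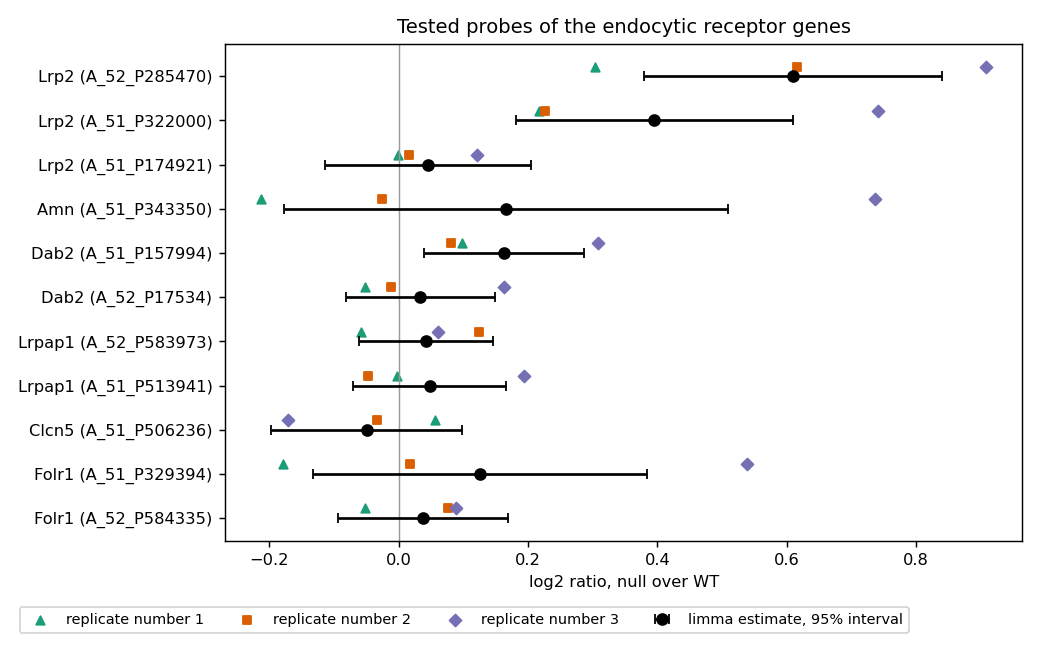
Log2 ratio of null over WT for the 11 tested probes (black point, limma estimate over 6 replicates, bar, 95% interval) with the mean of each replicate number (coloured markers, mean of 2 replicates). The bright *Lrp2* probes lie to the right of 0 at every replicate number, while *Amn* and *Folr1* A_51_P329394 lie clearly to the right of 0 at replicate number 3 only.

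Megalin gave the largest estimate of the group. For *Lrp2*, the probe A_52_P285470 had log2 ratios of null over WT of 0.51, 1.05 and 1.15 in null/WT replicates 1, 2 and 3, and of 0.10, 0.18 and 0.66 in WT/null replicates 1, 2 and 3. Every replicate, and each of the 12 arrays, was higher in null than in WT. Its estimate was 0.61 ± 0.10 (SE, n = 6 replicates), a 1.53-fold level in null kidneys, with an adjusted p of 0.199 by limma. This probe ranked 32 of 22979 by p. The ratio was larger with null in Cy5 (mean 0.90) than with null in Cy3 (mean 0.32), a difference between dye orientations with an unadjusted p of 0.0187 for the dye term. The Cy5 mean, the rank and the estimate all include a spot described next.

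A single spot carried part of that estimate. On the second array of null/WT replicate 2 the *Lrp2* probe A_52_P285470 had a ratio of 1.73, against 0.37 on its duplicate array of the same samples. The null signals of the pair were alike, with a raw median of 6514 on the second and 5886 on the first array, whereas the WT signal was 754 on the second and 1928 on the first. A gap between duplicates at least that large (1.35) was seen for 3 of 22961 tested probes on that pair, this one included, where the median gap was 0.0497. The scanner software had not marked the spot as an outlier. With that array left out, a choice made after seeing the data, *Lrp2* had an estimate of 0.50 ± 0.11 (SE), a 1.41-fold level, with an adjusted p of 0.405, and its mean at replicate number 2 became 0.28 in place of 0.62.

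The second bright *Lrp2* probe, A_51_P322000, showed no such spot. Its log2 ratios were 0.17, 0.15 and 0.66 in null/WT replicates 1 to 3 and 0.27, 0.30 and 0.82 in WT/null replicates 1 to 3, with duplicates at most 0.244 apart. Again all 12 arrays were higher in null than in WT, and the estimate for *Lrp2* by this probe was 0.40 ± 0.09 (SE, n = 6), with an adjusted p of 0.441 by limma. Replicate number 3 stood at 0.74, against 0.22 and 0.23 at numbers 1 and 2. Without slide 3 the estimate by this probe was 0.22. Both bright probes thus gave the same direction and their highest ratio at number 3, where A_52_P285470 stood at 0.91, against 0.30 at number 1 and, without the odd spot, 0.28 at number 2. The third *Lrp2* probe, A_51_P174921, was well above background in 7 null and 4 WT channels of 12, so its estimate of 0.05 ± 0.07 rests on dim spots. The remaining *Lrp2* probe, A_52_P460882, was well above background in 2 null channels and no WT channel, and it was not tested.

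**Figure D2:**
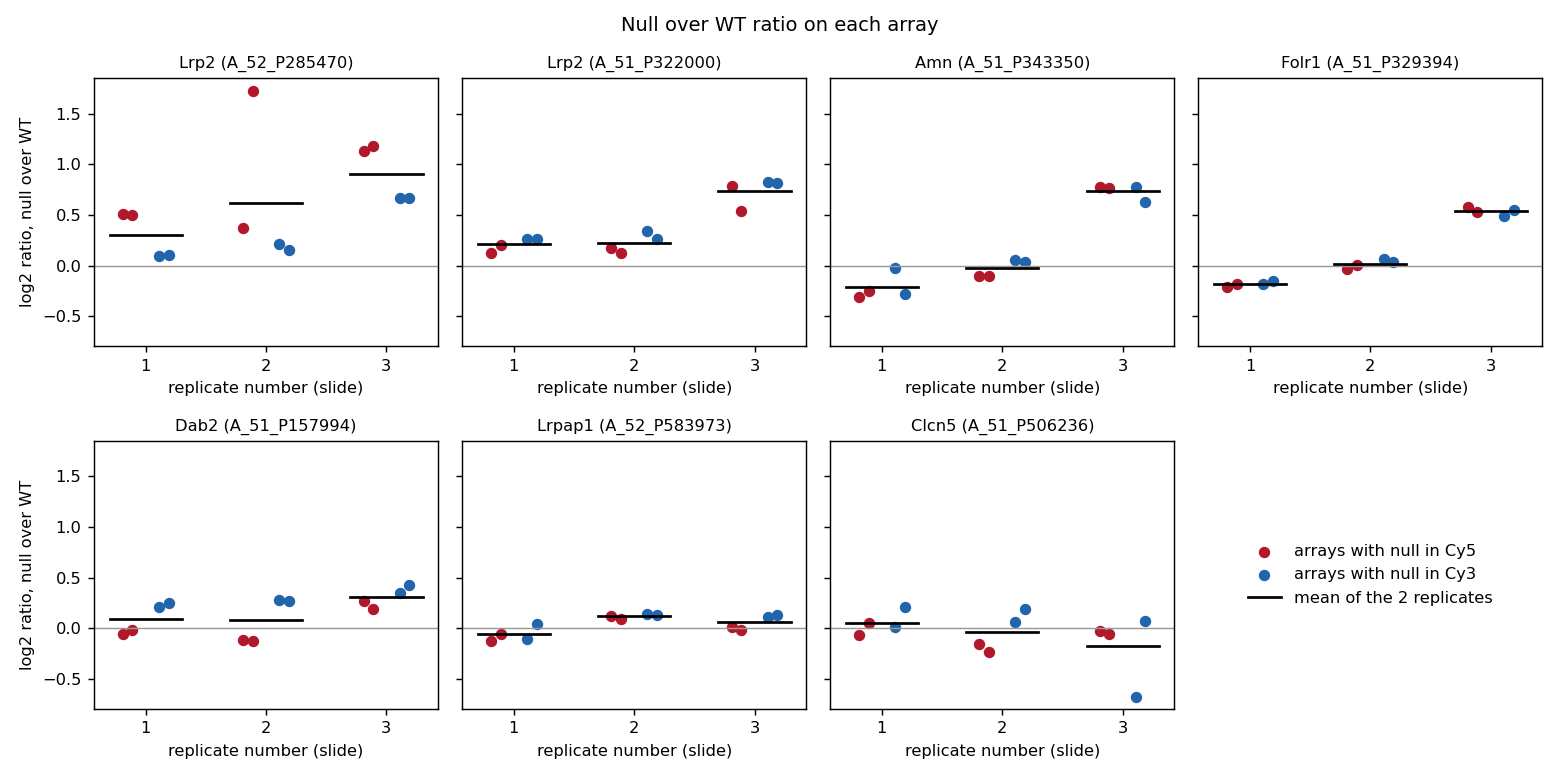
Log2 ratio of null over WT on each of the 12 arrays, by replicate number, for 7 probes of the 6 tested genes (red, null in Cy5; blue, null in Cy3; black line, mean of the 2 replicates of a number). *Lrp2* A_52_P285470 shows 1 array at 1.73 far above its duplicate at 0.37, and *Amn* and *Folr1* are high on all 4 arrays of replicate number 3.

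Cubilin itself could not be compared. The *Cubn* probe A_51_P145693 was well above background in 5 null and 4 WT channels of 12, and these were all 8 channels of slide 2 and 1 null channel of slide 3. On slide 2 the normalised log2 signal averaged 6.56 in null and 6.52 in WT kidneys, against 6.22 in null and 6.26 in WT on slide 1. The *Cubn* signal was thus above background in both genotypes of slide 2, which was also the slide with the highest *Lrp2* signal.

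Amnionless, the partner that brings cubilin to the membrane, had a single bright probe, A_51_P343350. The *Amn* log2 ratios were -0.28, -0.10 and 0.77 in null/WT replicates 1, 2 and 3, and -0.15, 0.05 and 0.70 in WT/null replicates 1, 2 and 3. Both replicates of number 3 were far above the other 4, which lay near 0 or below. The estimate over all 6 was 0.17 ± 0.15 (SE), with a 95% interval of -0.18 to 0.51 and an adjusted p of 0.749 by limma. Without slide 3 it was -0.12.

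As signals rather than ratios, the same probe of *Amn* read 10.15, 11.13 and 11.14 on the log2 scale in the null kidneys of null/WT replicates 1, 2 and 3, and 10.15, 11.20 and 11.15 in those of WT/null replicates 1, 2 and 3. In the WT kidneys it read 10.43, 11.23 and 10.37 in null/WT replicates 1, 2 and 3, and 10.30, 11.15 and 10.45 in WT/null replicates 1, 2 and 3. The null kidneys were high on slides 2 and 3 and low on slide 1, whereas the WT kidneys were high on slide 2 alone, and the ranges of both genotypes overlapped. The ratio at number 3 therefore stood between a null signal that differed from that of slide 2 by -0.02 and a WT signal that differed from it by -0.78.

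The folate receptor followed the same course. *Folr1* A_51_P329394 had log2 ratios of -0.19, -0.01 and 0.56 in null/WT replicates 1, 2 and 3, and of -0.16, 0.05 and 0.52 in WT/null replicates 1, 2 and 3. Its signals were 10.19, 11.08 and 11.07 in the null kidneys of null/WT replicates 1 to 3 and 10.30, 11.20 and 11.04 in those of WT/null replicates 1 to 3, beside 10.39, 11.09 and 10.51 in the WT kidneys of null/WT replicates and 10.47, 11.15 and 10.52 in those of WT/null replicates. Null was again high on slides 2 and 3 and WT on slide 2, with overlapping ranges. The *Folr1* estimate was 0.13 ± 0.11 (SE, n = 6), adjusted p = 0.747 by limma, and without slide 3 it was -0.080. The dimmer *Folr1* probe, A_52_P584335, gave 0.04 ± 0.06 and was only 0.09 at replicate number 3, so the probes of this gene disagreed there.

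Whether null over WT differed between the replicate numbers was tested with a moderated F in limma, which sets the differences between numbers against the spread between the 2 orientations of a number. *Amn* (adjusted p = 0.0217) and *Folr1* A_51_P329394 (adjusted p = 0.0329) passed, 2 of the 6 tested genes, against 1.48% of all tested probes. The ratio at number 3 exceeded that at number 1 by 0.95 ± 0.09 (SE) for *Amn* and by 0.72 ± 0.08 for *Folr1*, and that at number 2 by 0.76 ± 0.09 and 0.52 ± 0.08. *Lrp2* did not pass by A_52_P285470 (adjusted p = 0.145) nor by A_51_P322000 (adjusted p = 0.0534). The spread between orientations may be technical, which would make these p-values too small, and the calls of both genes were lost under 3 other ways of reading the signals, with adjusted p of 0.0560 to 0.0656 for *Amn* and 0.0585 to 0.0718 for *Folr1*. Slide and replicate cannot be told apart.

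**Figure D3:**
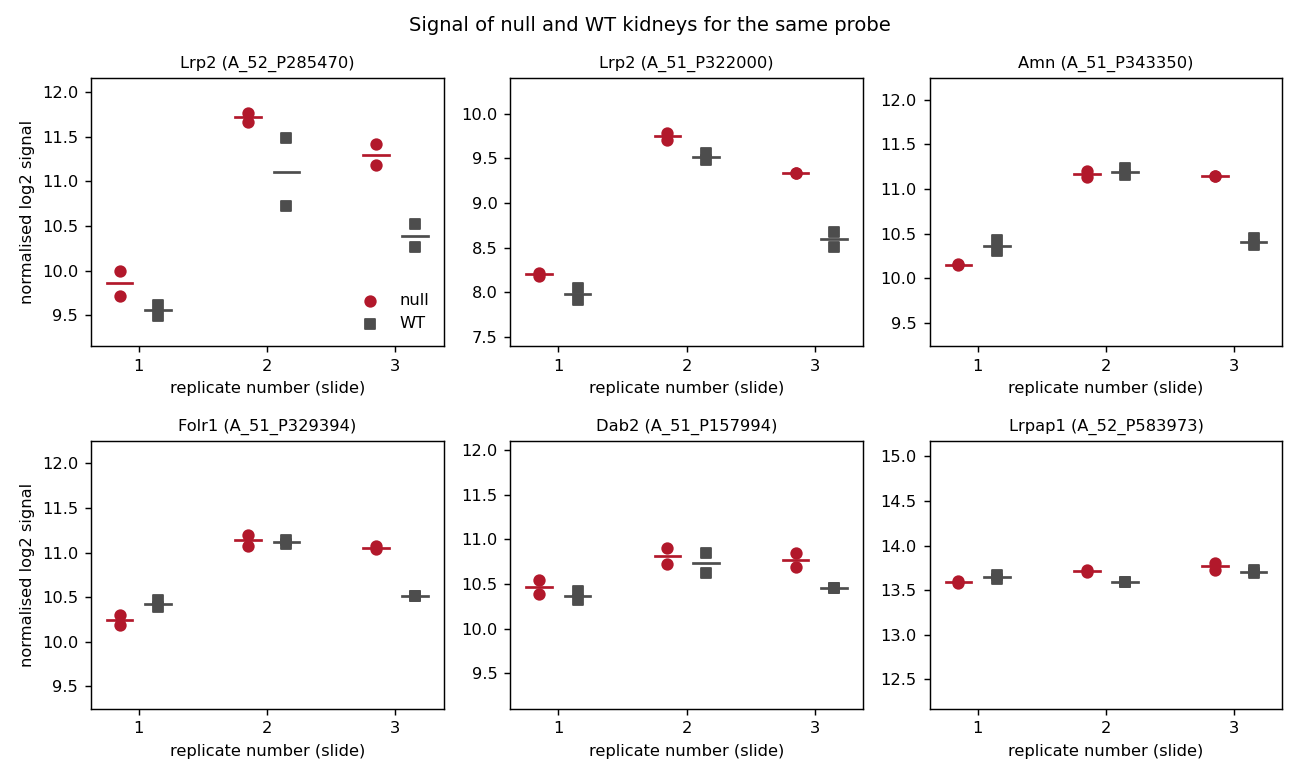
Normalised log2 signal of null (red circles) and WT (grey squares) kidneys for 6 probes, by replicate number, 1 point per replicate and a line at the mean of each pair. For *Amn* and *Folr1* the null signal at number 3 stands beside that of number 2. Their WT signal at number 3 stands beside that of number 1. *Lrpap1* A_52_P583973 shows no such split.

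For *Lrp2*, *Amn* and *Folr1* the signal differed more between slides 1 and 2 than between the genotypes on a slide. On slide 2, set against slide 1, the *Lrp2* probe A_52_P285470 was higher by 1.86 in null and 1.55 in WT kidneys on the log2 scale, and A_51_P322000 by 1.55 in null and 1.54 in WT. *Amn* was higher by 1.01 in null and 0.83 in WT, and *Folr1* A_51_P329394 by 0.89 in null and 0.69 in WT. Over all tested probes, 150 (0.653%) were at least 1 log2 unit apart between slides 2 and 1 in the mean of both genotypes, and both bright *Lrp2* probes were among them. On slide 3 *Lrp2* A_51_P322000 stood above slide 1 by 1.13 in null but by 0.61 in WT kidneys.

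Dab2, the adaptor that links megalin to clathrin, had a small estimate. Its brighter probe, A_51_P157994, had *Dab2* log2 ratios of -0.04, -0.12 and 0.23 in null/WT replicates 1, 2 and 3, and of 0.23, 0.28 and 0.39 in WT/null replicates 1, 2 and 3. All 3 values with null in Cy3 lay above the highest value with null in Cy5, and the dye term had an unadjusted p of 0.0335. The estimate for *Dab2* was 0.16 ± 0.05 (SE, n = 6), with an adjusted p of 0.640 by limma. Its dimmer probe, A_52_P17534, gave 0.03 ± 0.05.

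For *Lrpap1*, the gene of the chaperone RAP, both probes were well above background on all arrays. A_52_P583973 had log2 ratios of -0.09, 0.11 and 0.0011 in null/WT replicates 1, 2 and 3, and of -0.03, 0.14 and 0.12 in WT/null replicates 1, 2 and 3, which scatter closely about 0. Its estimate was 0.04 ± 0.05 (SE), with a 95% interval of -0.06 to 0.15, and the other *Lrpap1* probe, A_51_P513941, gave 0.05 ± 0.05 with an interval of -0.07 to 0.17. These were the narrowest intervals of the group together with that of *Dab2* A_52_P17534. Between slides 1 and 2 the *Lrpap1* signal by A_52_P583973 was apart by 0.12 in null and by -0.06 in WT kidneys (slide 2 minus slide 1). By A_51_P513941 it was apart by 0.11 in null and 0.15 in WT, so neither probe shared the slide difference of *Lrp2*. The ratio of A_51_P513941 was higher at replicate number 3 (0.19) than at numbers 1 and 2 (-0.0020 and -0.05). Its adjusted p by the F test between numbers was 0.248.

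*Clcn5*, the endosomal chloride-proton exchanger gene on the X chromosome, had the only estimate below 0. Its log2 ratios were -0.0047, -0.19 and -0.04 in null/WT replicates 1, 2 and 3, and 0.12, 0.12 and -0.30 in WT/null replicates 1, 2 and 3, with no common direction. The estimate was -0.05 ± 0.06 (SE, n = 6) with an interval of -0.20 to 0.10 and an adjusted p of 0.803 by limma. The lowest *Clcn5* value came from the first array of WT/null replicate 3, the noisiest array, at -0.67, against 0.07 on its duplicate; without that array the estimate was 0.012. The part of the unequal make-up by sex in the values of this X-linked gene was not tested.

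Among the members' patterns over the 12 arrays, *Amn* and *Folr1* A_51_P329394 were most alike, with a Pearson correlation of 0.977, and *Lrp2* A_51_P322000 correlated with *Amn* at 0.929 and with *Folr1* at 0.920. The *Lrp2* probes A_52_P285470 and A_51_P322000 correlated at 0.228, with the odd spot and the dye difference included. These 12 points share samples, slides and dye orientation, so the values are descriptions. Outside the group, the genes most like *Amn* were *Hsd3b4* (0.991), *Sigirr* (0.983) and *Acta2* (0.983), and those most like *Folr1* were *Myl1* (0.993), *Fbp1* (0.993) and *Hsd3b4* (0.990). *Fbp1*, a gluconeogenic enzyme of the proximal tubule, was among them, and so were the muscle genes *Acta2* and *Myl1*. For *Lrp2* the closest were *Dynll1* (0.902), *Uxt* (0.877) and *Mrps2* (0.877) by the probe with the odd spot, for *Dab2* *Manf* (0.987), *Ube2g2* (0.985) and *Zdhhc9* (0.979), for *Lrpap1* *Psme1* (0.955), *Oas2* (0.887) and *Bst2* (0.886), and for *Clcn5* *Cecr2* (0.965), *Ogt* (0.959) and *Dlg3* (0.958). The *Clcn5* correlations include its value of -0.67 on the noisiest array, against 0.07 on the duplicate, and may rest largely on it.

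Genes that work with the receptors were taken from 6 lists, and none of the 102 tested genes on them was called by limma, with 9 at an unadjusted p under 0.05, which 7.01% of all tested probes passed. Of 29 tested adaptor and trafficking genes, 15 had a ratio above 0 and 14 below, with a median of 0.02, and *Ap2a1*, a subunit of the clathrin adaptor AP-2, had the smallest p at -0.11 ± 0.04 (SE). Of 19 genes for ion transport in endosomes and lysosomes, 16 lay above 0 and 3 below with a median of 0.02, and *Atp6v1b1*, a subunit of the proton pump, stood at 0.20 ± 0.07. The LDL receptor family, megalin's relatives, had 7 of 12 above 0 and a median of 0.01, with *Lrp5* at 0.20 ± 0.06, *Vldlr* at 0.12 ± 0.04 and *Lrp8* at -0.11 ± 0.05. These medians lay close to that of all named genes.

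Ligands of megalin and cubilin had 16 of 20 tested genes above 0, beside 48.1% of all named genes, and a median of 0.08. Their medians were -0.03, 0.01 and 0.18 at replicate numbers 1, 2 and 3. *Apoe* stood at 0.12 ± 0.04 (SE), *Trf* at 0.11 ± 0.05 and *Alb* at 0.13 ± 0.06, and none of the 20 was called. Of 13 genes for folate uptake and use, 11 lay below 0 with a median of -0.05, and *Shmt1*, whose enzyme passes carbon from serine to folate, was at -0.19 ± 0.06. Of 9 tubule transcription factors, 5 lay above 0 with a median of 0.02. Over the 6 lists, 5 genes differed between replicate numbers by the F test, beside 211 of the 12647 named genes. The metallothionein genes *Mt1* and *Mt2* stood at 1.21 and 1.38 at number 3, against -0.27 and -0.37 at number 1, while *Lrp1* stood at -0.38 at number 3, against 0.37 at number 1. The other 2 were *Afp* (1.45 at number 3) and *Pdzk1* (0.77 at number 3).

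Other genes of the proximal tubule had a like pattern over the replicate numbers. Of 22 tested proximal tubule markers, 21 had a ratio above 0, with medians of -0.06, 0.02 and 0.45 at replicate numbers 1, 2 and 3, beside medians of -0.0016, 0.05 and 0.42 for the 6 receptor genes, and none was called for null over WT by limma (2 at an unadjusted p under 0.05, beside 7.01% of all tested probes). The F test between numbers called 9 of the 22, beside 211 of the 12647 named genes, among them the phosphate transporter *Slc34a1* at -0.17, -0.04 and 1.30, the organic anion transporter *Slc22a6* at 0.01, 0.0043 and 1.16, and *Fbp1* at -0.08, 0.57 and 2.25 (numbers 1, 2 and 3). The summed signal of the list ranged from 11551 to 26047 in null and from 12394 to 25007 in WT kidneys. Set against slide 1, the median marker was higher on slide 2 by 0.64 in null and 0.52 in WT, and on slide 3 by 0.60 in null and 0.12 in WT, beside 0.62 and 0.53, and 0.55 and 0.07, for the receptor genes.

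Markers of other cell types also stood apart at replicate number 3. The 9 loop and distal markers had medians of 0.05, 0.06 and 0.81 at numbers 1, 2 and 3, with summed signals of 6235 to 11400 in null and 5590 to 10808 in WT. The 10 tested of 14 skeletal muscle and cartilage markers had medians of 0.14, 0.26 and 0.77, with sums of 4565 to 7877 in null and 3964 to 5476 in WT, and *Myh8*, a developmental muscle myosin, reached 2.16 at number 3. The F test between numbers called 5 of the 9 loop and distal markers and 6 of the 10 muscle and cartilage markers. Among the 10 nephron progenitor markers it called 0. These progenitor markers had a median of -0.17 at number 3, against -0.0013 at number 1. The part of these cell types in the *Lrp2*, *Amn* and *Folr1* ratios was not tested.

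**Figure D4:**
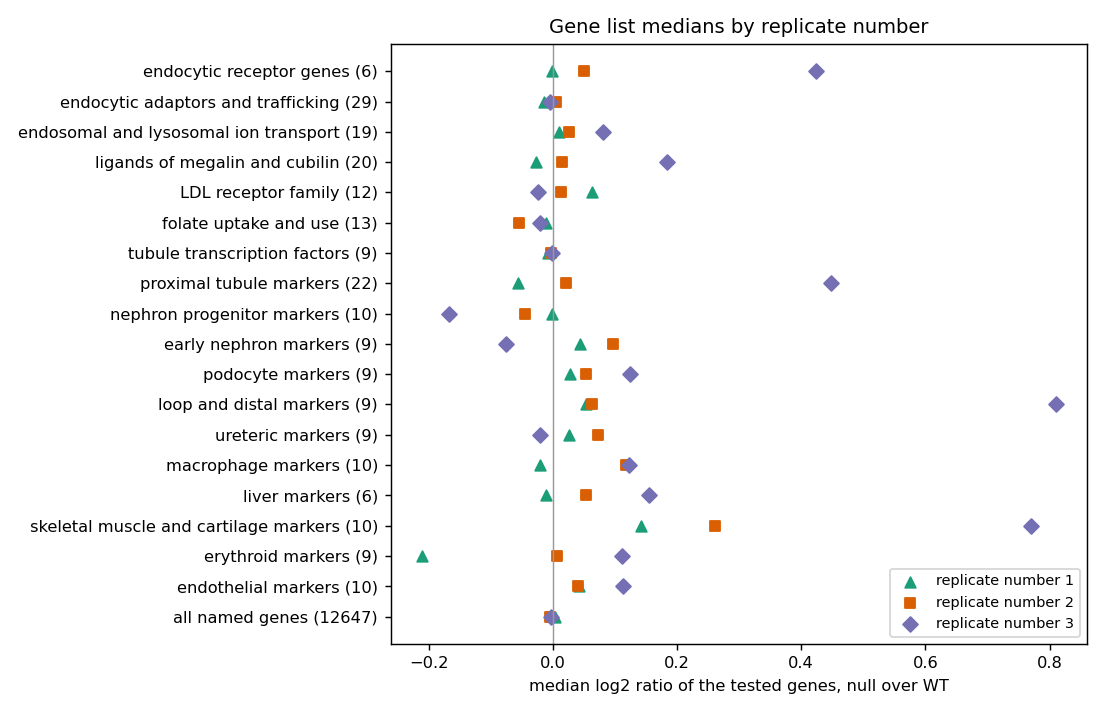
Median log2 ratio of null over WT of the tested genes of each list (number of genes in brackets), at replicate numbers 1, 2 and 3. The receptor genes (0.42), proximal tubule (0.45), loop and distal (0.81) and muscle and cartilage lists (0.77) stand to the right at number 3, while all named genes stay near 0.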

How the data were processed

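Median spot and background intensity values per dye were deposited without further normalization, per the file headers. The same files hold the scanner software's log10 ratio of Cy5 over Cy3 and its processed intensity values, and the file headers give Agilent Feature Extraction 10.5.1.1 as its version (6.1 per the submitters' processing notes). The deposited series table holds log10 ratios of null over WT: its columns correlated with the scanner's at 0.998 to 0.999 with a slope of 1.00, which settled direction and scale. How the authors chose its blank entries is not known. By array, the column medians of null/WT replicates 1 to 3 were 0.000114, -0.00174, -0.00332, -0.00315, 0.00645 and 0.00145. Those of WT/null replicates 1 to 3 were -0.00257, -0.00441, -0.000946, -0.000769, -0.0218 and -0.0100.

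Median intensities were corrected with normexp (offset 50) and normalized by loess within each array with limma 3.58.1 in R 4.3.3. Control and outlier spots had weight 0 and were then left out (101 to 262 outlier spots per array), spots of a probe were averaged, and the 2 arrays of a replicate were averaged, so n is 6. Signals are the dye channels after loess and Aquantile. Genes were named through RefSeq accessions (GRCm38.p6, 25097 of 41174 probes), and a gene is given by its brightest tested probe unless a probe is named. The fit had a genotype and a dye term. Replicates are biological per the series design, but separate RNA extracts for each orientation are not documented. The p-values of the main fit measure the spread between the 6 replicates, part of which may be technical. Those of the F test between numbers rest on the spread between orientations, which may be technical as well. Precision is limited by the number of replicates, with a median SE of 0.0506 on the log2 scale in the main fit. The replicate numbers pair the samples: both orientations of a number lie on 1 slide, and their deviations correlated at 0.587, 0.517 and 0.413. The main fit leaves this pairing out, so its SE and p-values may be too small. With the replicate block, the unadjusted limma p of *Lrp2* was 0.00113, against 0.00028 in the main fit. An unadjusted p under 0.05 was then reached by 3.30% of tested probes, against 7.01%. Named genes were all 7 members, *Bdkrb2*, sex transcripts, up to 3 genes per pathway list and 2 per marker list with the smallest p, and the 3 genes most like each member. *Six2*, and the genes given for differing between replicate numbers, were chosen after their values were seen. Members and lists were chosen with earlier results of these data known. The fits were tested on simulated data. Alternatives covered background correction, normalization, the deposited table, the filter on dim probes, the probe of a gene, replicates, slides and arrays left out, the block and duplicateCorrelation; the array with the odd *Lrp2* spot was left out after seeing the data. No column lacked a sample (0).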

Additional observations from a re-analysis of the deposited data

How the results depend on the processing

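No member was called null over WT by its brightest probe under any setting tried. The *Lrp2* estimate ranged from 0.35 (mean of its probes) to 0.78 (median centring) with adjusted p of 0.0948 to 0.904. With the replicate block it was 0.904, as it was for *Amn*, *Dab2*, *Clcn5* and *Folr1*; the block changed no member's call. The second *Lrp2* probe A_51_P322000 passed only with all 12 arrays and duplicateCorrelation (adjusted p = 0.0461, up to 0.953 elsewhere). With replicates or slides left out in turn, *Amn* ranged from -0.12 (no slide 3) to 0.36 (no slide 1), *Folr1* from -0.080 to 0.28 at the same settings, and *Clcn5* from -0.10 (no slide 1) to 0.020 (no WT/null replicate 3). *Clcn5* turned to 0.051 under median centring and to 0.012 without the noisiest array. Median centring also moved the median of all tested probes to 0.14.

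The F test between replicate numbers called 0 members without background subtraction (adjusted p = 0.0560 for *Amn*, 0.0718 for *Folr1*), with the scanner's processed signals (0.0617 and 0.0585) and with the authors' deposited table (0.0656 and 0.0622). It called 1 with no filter (*Folr1* 0.0674) or with the mean of a gene's probes (*Folr1* 0.153), and 5 with median centring (*Lrp2* 0.00406). Over all settings these ranged from 1.12e-07 to 0.0656 for *Amn* and from 0.000164 to 0.153 for *Folr1*.

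Leaving out slide 3 moved the number of pathway genes called from 0 to 4, while without slide 1 or slide 2 it stayed at 0. The probes called in all were 9; they ranged from 3 with slide 2 left out to 62 with slide 3 left out, and were 5 without null/WT replicate 2, 4 with the block, 148 with duplicateCorrelation and 15 without the noisiest array. The causes were not tested. Dim spots limit *Cubn*, *Clcn5* and the weaker probes.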

Other observations

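With slide 3 left out, 4 of 102 tested pathway genes passed the null over WT test in limma, beside 62 of 22979 tested probes. None of these 4 genes passed with all 6 replicates. The remaining 4 replicates are both orientations of replicate numbers 1 and 2, on slides 1 and 2. Treated as independent, they may give SE and p-values that are too small. The 4 genes are named after their values were seen. *Lrp1*, a relative of megalin that clears ligands in many tissues, had an estimate of 0.38 ± 0.04 (SE, adjusted p = 0.0228), with 0.37 and 0.39 at replicate numbers 1 and 2, against -0.38 at number 3. *Mt1* and *Mt2*, metallothioneins that bind zinc and are taken up through megalin, had estimates of -0.29 ± 0.04 (adjusted p = 0.0481) and -0.38 ± 0.04 (adjusted p = 0.0216), whereas at number 3 they stood at 1.21 and 1.38. *Shmt1* had -0.28 ± 0.04 (adjusted p = 0.0486), with -0.02 at number 3. None of the 6 tested receptor genes passed without slide 3.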
